A study of Mus musculus with 3 samples.

Results

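The neighbourhood of the replication-dependent histone genes of cluster 1 (Hist1) was examined for H3K4me3 and H3K27me3 regions in mouse primordial germ cells at E11.5. The cluster was taken as 2 stretches of chromosome 13 on build mm9, from 21.78 to 22.15 Mb (the proximal stretch, 370 kb) and from 23.50 to 23.80 Mb (the distal stretch, 300 kb). The 1.35 Mb that separates them, mostly receptor genes, was the internal comparison. Every called region that touched a stretch by at least 1 bp was a member. This gave 85 of the 47928 H3K4me3 regions (0.177%) and 4 of the 18731 H3K27me3 regions (0.0214%). Of the 85, 49 lay in the proximal and 36 in the distal stretch.

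Germ cells were sorted by FACS as the GFP+ population from pooled gonadal regions of several E11.5 embryos, bred from an Oct4:GFP transgenic B6 line and Swiss-Webster females. Cells of 2 aliquots (104000 and 97000) were fixed in 0.25% formaldehyde and shared out between a precipitation for each mark and an input, which was not analysed here. Every sample thus carried the same reporter and the same crossed background, and no treatment was compared. There was 1 list per mark, standing for 2 replicates. The lists hold positions without read counts, so the depth behind a call is unknown and replicate error cannot be given. No expression was measured, and markers of germ cells or of other cells could not be placed on the lists, so the purity of the sort was not examined.

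Core histones H2A, H2B, H3 and H4 form the spool that DNA winds around, and the linker histone H1 sits where DNA enters and leaves it. Their replication-dependent genes are short, lack introns, make messages without a poly(A) tail and are expressed in S phase, when new DNA must be packaged. Trimethylation of lysine 4 on H3 (H3K4me3) is typical of active and CpG-rich promoters. Trimethylation of lysine 27 (H3K27me3) is placed by Polycomb at silent genes. Both marks are therefore carried by the H3 protein that some of these genes encode.

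By gene order in a RefSeq table, the neighbourhood held 54 protein-coding histone genes and 2 histone pseudogenes. The coding genes were 6 for H1, 13 for H2A, 15 for H2B, 9 for H3 and 11 for H4. They came in 5 groups separated by other protein-coding genes. A first group of 18 ran from Hist1h2bl to Hist1h2br. A second of 5, from Hist1h2ah to Hist1h2bj, followed after 31 tRNA genes and Zfp184, Pom121l2 and Prss16, which encode a zinc finger protein, a nucleoporin-like protein and a thymus serine protease. Then came 36 coding genes and 39 pseudogenes of the Vmn1r family, vomeronasal receptors that sense pheromones, with 46 tRNA genes and, among others, Abt1, Btn1a1 and Btn2a2. Next, a group of 20 coding histone genes, Hist1h4h to Hist1h4c, and a group of 9, Hist1h1c to Hist1h1a, were separated by the iron-regulating gene Hfe. The last 2, Hist1h2ba and Hist1h2aa, encode testis variants of H2B and H2A. The table is of assembly GRCm38.p6 and the regions are of mm9, so regions were not matched to genes. The 77 tRNA genes between the first and the last histone gene, which can also carry H3K4me3 nearby, cannot be told apart from histone genes in the region counts.

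Promoter sequences are given to show how histone promoters differ by class and from a receptor promoter. The first coding gene of each class in chromosome order that had an entry in the RefSeq table was chosen, with the first Vmn1r receptor gene beside them. Each line gives the 150 bases before the transcription start, on the gene's own strand, from GRCm38.p6 chromosome 13 (plus strand for Hist1h2ai, Hist1h3h, Hist1h4j and Vmn1r188, minus strand for the others). Capitals mark TATAAA on the gene's strand, and on either strand CCAAT, the octamer ATTTGCAT of H2B promoters, the AAACACA box of H1 promoters and the GGTCCG element of H4 promoters.
Hist1h1b: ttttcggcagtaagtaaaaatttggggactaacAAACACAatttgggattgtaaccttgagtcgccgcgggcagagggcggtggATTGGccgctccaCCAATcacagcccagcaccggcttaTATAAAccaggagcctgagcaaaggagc
Hist1h2ai: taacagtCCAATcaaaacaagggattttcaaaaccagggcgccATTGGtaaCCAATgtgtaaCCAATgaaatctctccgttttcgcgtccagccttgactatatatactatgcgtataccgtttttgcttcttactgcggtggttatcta
Hist1h2bl: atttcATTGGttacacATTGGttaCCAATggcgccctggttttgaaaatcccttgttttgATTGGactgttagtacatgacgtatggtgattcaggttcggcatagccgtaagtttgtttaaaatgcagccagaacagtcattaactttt
Hist1h3h: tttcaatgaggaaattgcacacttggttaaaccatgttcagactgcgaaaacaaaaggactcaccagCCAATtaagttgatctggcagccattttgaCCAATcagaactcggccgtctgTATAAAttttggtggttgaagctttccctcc
Hist1h4j: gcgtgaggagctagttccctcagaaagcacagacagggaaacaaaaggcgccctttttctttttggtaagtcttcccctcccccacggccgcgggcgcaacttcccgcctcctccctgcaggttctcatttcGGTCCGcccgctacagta
Vmn1r188: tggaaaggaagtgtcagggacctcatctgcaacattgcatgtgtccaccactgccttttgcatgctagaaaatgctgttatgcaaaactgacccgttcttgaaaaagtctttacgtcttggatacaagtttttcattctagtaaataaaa

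Hist1h2ai and Hist1h2bl are transcribed away from each other, and 72 of the 150 bases printed for each are the same DNA read from opposite strands. In the table, 12 pairs of adjacent genes joined an H2A with an H2B gene. Shared promoter DNA was measured for the printed pair alone. The CCAAT boxes of the shared DNA therefore lie before both genes.

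Of the 54 coding histone genes, 51 matched the promoter table, with 52 promoter entries. Hist1h3f, Hist1h2bc and Hist1h3a had none. Within 250 bases before the start, CCAAT or its complement occurred in 44 of 52 histone promoters (84.6%), against 33.9% of the 32851 promoters of the table and 33.3% of 33 receptor promoters. It was present in all 6 H1, 13 H2A, 15 H2B and 7 H3 promoters and in 3 of 11 H4 promoters. GGTCCG showed the reverse, in 8 of 11 H4 promoters (72.7%) and in 2 of the other 41, against 6.72% of the table. AAACACA occurred in 5 of 6 H1 promoters against 6.25% of the table, although 24.2% of receptor promoters held it as well. The octamer occurred in 6 of 15 H2B and 5 of 13 H2A promoters, some of which share their DNA, and in no H1, H3 or H4 promoter; 1.60% of the table held it. TATAAA occurred in 21 of 52 histone promoters (40.4%) against 7.59% of the table, and in 10 of those 21 it began 25 to 40 bases before the start. These entries are not independent sequences, here and in the CpG ratios below. Hist1h2ai and Hist1h2bl share promoter DNA, and Hist1h2be has more than 1 entry. Hist1h4m and Hist1h4n each had 94.3% of their 36-base words in another gene's promoter, and Hist1h2bq and Hist1h2br 100%. The same box can therefore be counted more than once. A match is a description of letters and not evidence of binding.

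Histone promoters were rich in CpG while not rich in G and C. The observed over expected CpG ratio of the 250 bases had a median of 0.748 (quartiles 0.573 and 0.923) over the 52 histone promoters. Receptor promoters had a median of 0.116 (quartiles 0 and 0.216), and all promoters together had 0.374 (0.167 and 0.723). Class medians ran from 0.651 for H2A to 0.801 for H2B and H3. The sets overlapped, since histone promoters ranged from 0.203 (Hist1h4b) to 1.25 and receptor promoters from 0 to 0.453. The G and C content had medians of 44.6% for histone, 37.6% for receptor and 52.4% for all promoters.

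**Figure D1:**
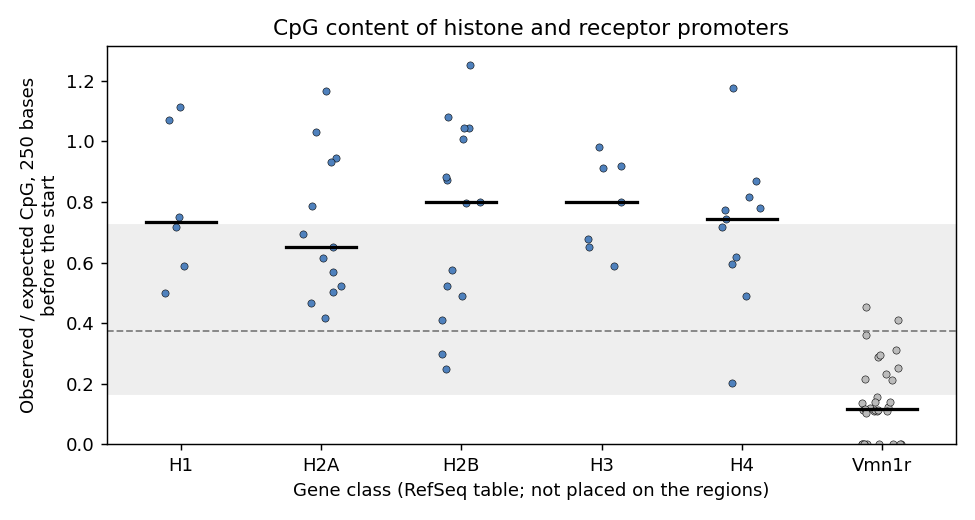
Observed over expected CpG ratio in the 250 bases before the start (y axis) for each promoter entry of the 5 histone classes and of the Vmn1r receptor genes (x axis). Points are promoters, black bars medians, and the dashed line and grey band the median (0.374) and quartiles of all promoters in the table. Every class median of the histones lies above the band's middle line, and the receptor median of 0.116 lies below the band.

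H3K4me3 regions crowded both histone stretches and were nearly absent from most of the sequence between them. The proximal stretch held 49 regions (132.4 per Mb) and the distal stretch 36 (120 per Mb), while the 1.35 Mb between held 14 (10.4 per Mb). The densities were 12.8 and 11.6 times that of the stretch between. These ratios average over an uneven stretch. Its first 1212 kb held 1 region, and its last 138.4 kb held 93.9 per Mb. H3K4me3 covered 64.4 kb of the proximal stretch (17.4%), 75.4 kb of the distal stretch (25.1%) and 22.4 kb of the stretch between (1.66%). Across both histone stretches the coverage was 20.9%, 11.0 times the 1.90% of the whole list over the assayed genome, and the density of 126.9 per Mb was 6.99 times that of the list. With 1 list per mark, no test over replicates could be made of these differences.

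**Figure D2:**
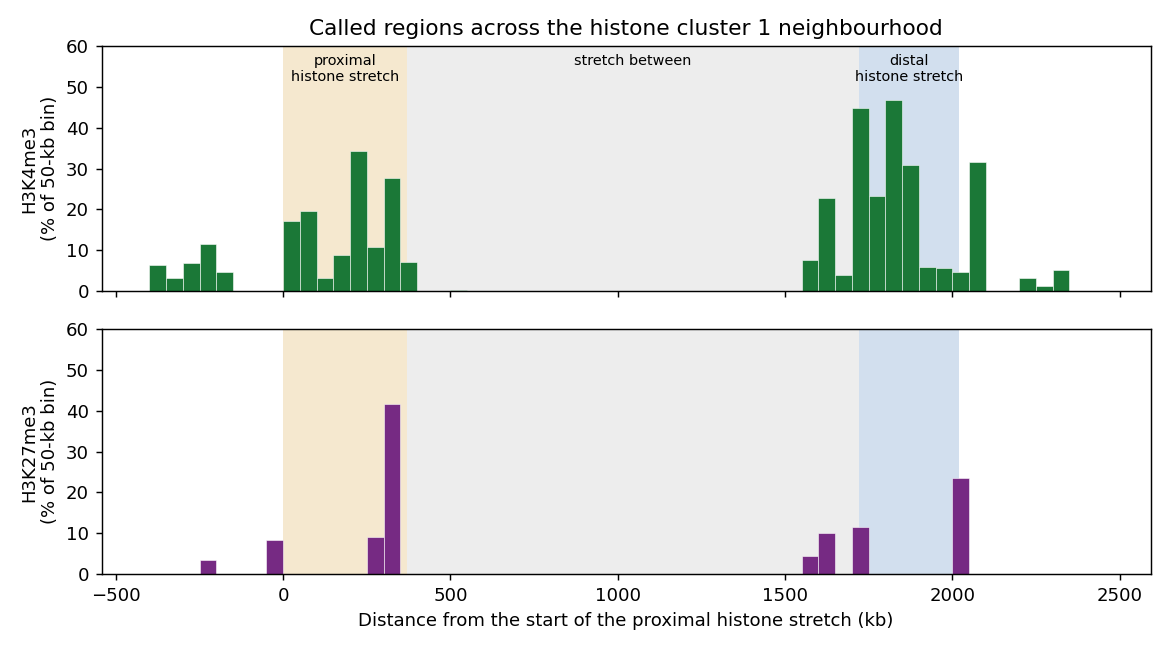
Percent of each 50-kb bin covered by called H3K4me3 (top) and H3K27me3 (bottom), against the distance from the start of the proximal histone stretch. Shading marks the proximal stretch, the stretch between and the distal stretch. H3K4me3 reaches 34.4% of a bin in the proximal and 46.8% in the distal stretch, with a bare block between them, and the highest H3K27me3 bin (41.6%) lies near the end of the proximal stretch.

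Few places in the genome were as dense. Windows of the same length were laid end to end over the autosomes and X, leaving out the neighbourhood itself. Of 7114 windows of 370 kb, 13 (0.183%) held at least 49 H3K4me3 regions, and 14 (0.197%) had at least the coverage of the proximal stretch. The median window held 3 regions (quartiles 1 and 10) and the fullest 61. Of 8772 windows of 300 kb, 50 (0.57%) held at least 36 regions, and 0 (0%) reached the 25.1% coverage of the distal stretch. The stretches were placed on a cluster and the windows were not, which favours the stretches. When windows were slid in steps of 10 kb, 21 separate places matched the proximal coverage and 28 the proximal count of regions, with up to 68 regions in a window. The distal coverage was matched at 3 places and the distal count at 72. The highest coverage elsewhere was 30.6%, on chromosome 10 from 80590001 to 80890000. The stretch between was not unusual by count: 46.9% of 1941 windows of 1350 kb held 14 regions or fewer.

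**Figure D3:**
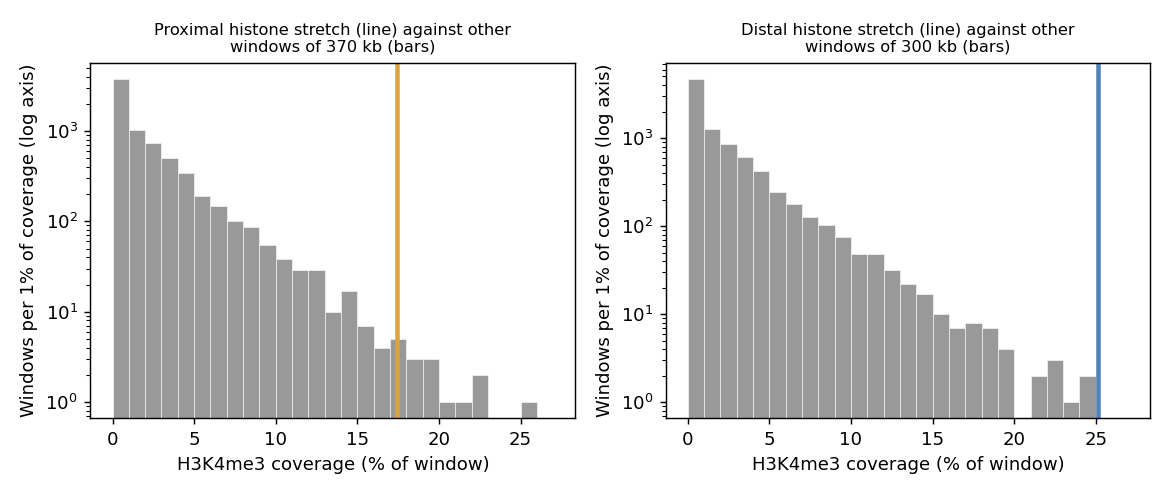
Number of genome windows (bars, log axis) by H3K4me3 coverage, for windows as long as the proximal (left, 370 kb) and distal (right, 300 kb) histone stretch, whose own coverage is the vertical line. Windows were laid end to end. The line of the proximal stretch stands at 17.4%, with 14 windows at or above it. That of the distal stretch stands at 25.1%, above every window drawn, although windows slid in steps of 10 kb matched it at 3 places.

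The limits of the stretches enclosed the run of H3K4me3 regions at the proximal end and not at the distal end. The 49 proximal regions ran from 21801801 to 22143400, inside the limits, with no other region for 178.4 kb before them and 149.8 kb after them. After that came a lone 200-bp region and then 1068.2 kb without any H3K4me3, from 22293401 to 23361600; 0.499% of the 47906 gaps in the list were at least as long. The remaining 13 regions of the stretch between all lay in its last 138.4 kb, at 93.9 per Mb. They were continuous with the distal stretch in a run from 23361601 to 23870800, in which no gap reached 100 kb. That run held 59 regions, of which 13 preceded the distal stretch and 10 followed it. The bare block between the stretches is therefore the first 1212 kb only, with 1 region. Since genes were not placed, it was not examined which of the 59 regions belong to histone genes.

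Flanks of equal length were sparser. The 370 kb before the proximal stretch held 16 regions (43.2 per Mb, 4.43% covered), and the 300 kb after the distal stretch held 15 (50 per Mb, 6.87% covered), among them the 10 that ended the run.

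Regions in the distal stretch were wider than those in the proximal stretch by their medians. Proximal widths ran from 200 to 3600 bp with a median of 1200 bp (quartiles 600 and 1800 bp). Distal widths ran from 200 to 7200 bp with a median of 1600 bp (quartiles 800 and 2550 bp). The median of the whole list was 800 bp (quartiles 200 and 1400 bp). The ranges overlapped, but 7 of the 36 distal regions were wider than every proximal region. Neighbouring regions are not replicates, so the difference between the stretches was not tested. Regions of at least 2 kb made up 16 of 36 in the distal stretch (44.4%, 95% Wilson interval 29.5 to 60.4%), 9 of 49 in the proximal stretch (18.4%, 9.98 to 31.4%) and 16.6% of the list. Single 200-bp steps, the narrowest call possible, were 10 of the 85 members (11.8%, 6.52 to 20.3%), against 25.7% of the list. These intervals cover the counting of regions only.

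The 5 widest members all lay in the distal stretch, and whether they lie at histone genes or at other genes was not examined. The widest of all measured 7.2 kb (23525001 to 23532200). A region of 6.2 kb (23514401 to 23520600) lay 4.4 kb before it, with a region of 3.0 kb in that space. Others measured 5.2 kb (23621801 to 23627000), 5.0 kb (23589401 to 23594400) and 4.4 kb (23595601 to 23600000). All 5 lay in the first 127 kb of the stretch, and none touched H3K27me3, which was 10.0 to 117.4 kb away. Regions of at least 5 kb numbered 4 of 36 here (11.1%, 95% Wilson interval 4.41 to 25.3%), 0 of 49 in the proximal stretch (0 to 7.27%), and 381 in the whole list (0.795%). In the proximal stretch the widest were 3.6 kb (21807001 to 21810600), 3.4 kb (22009201 to 22012600), 3.0 kb (22025801 to 22028800), again 3.0 kb (22111801 to 22114800) and 2.8 kb (21870201 to 21873000). They were spread along the stretch and lay 4.6 to 117 kb from H3K27me3.

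**Figure D4:**
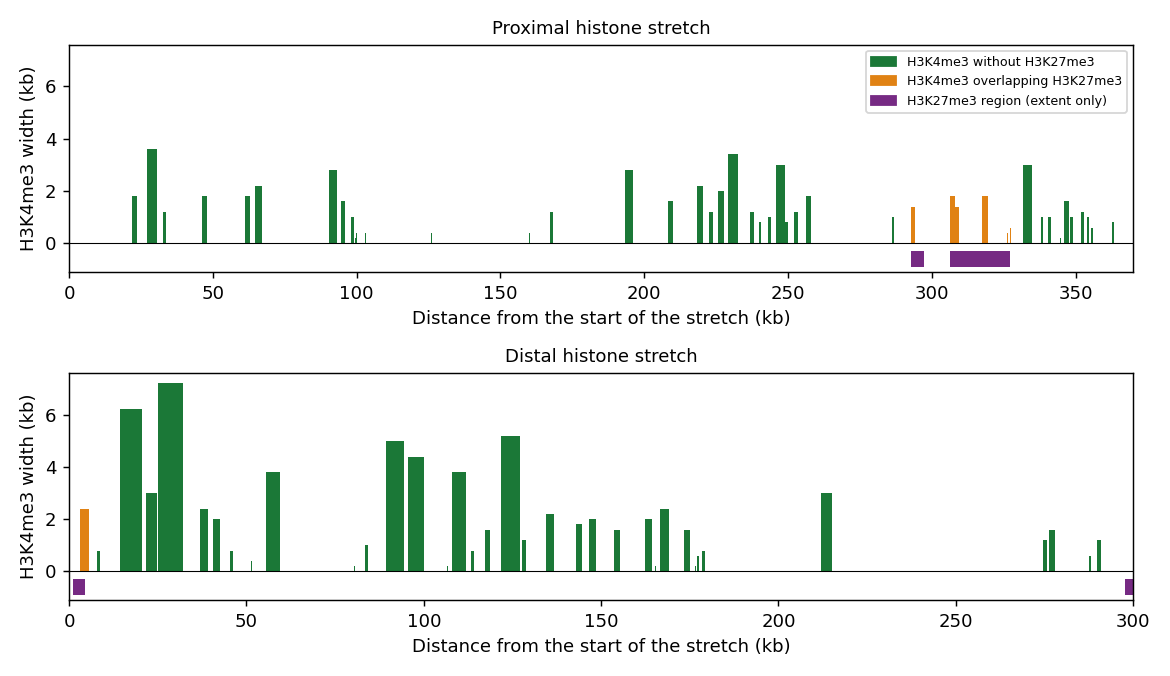
Every H3K4me3 region of the proximal (top) and distal (bottom) histone stretch at its place along the stretch (x axis, kb), drawn to scale in x with its height equal to its width in kb; purple bars below show H3K27me3 by extent alone. The tallest bars, 7.2 and 6.2 kb, stand near the start of the distal stretch, and the 7 orange regions that overlap H3K27me3 are 6 in the proximal and 1 in the distal stretch.

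Spacing was close in both stretches, and the median gap was much alike, while centre distances and the longest gaps differed. The gap from the end of a region to the start of the next had a median of 2700 bp (quartiles 1550 and 6800 bp) over 48 proximal gaps. It had a median of 2800 bp (quartiles 1200 and 5300 bp) over 35 distal gaps. The 47906 gaps of the list had a median of 13200 bp (quartiles 4000 and 40200 bp). Gaps under 5 kb made up 54 of the 83 histone gaps (65.1%, 95% Wilson interval 54.3 to 74.4%) and 29.0% of all gaps. From centre to centre the median distance was 4100 bp in the proximal and 5600 bp in the distal stretch, against 14400 bp in the list. The longest gap without H3K4me3 was 28 kb in the proximal stretch (22038001 to 22066000) and 59.6 kb in the distal stretch (23715001 to 23774600). No H3K27me3 lay in either gap.

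**Figure D5:**
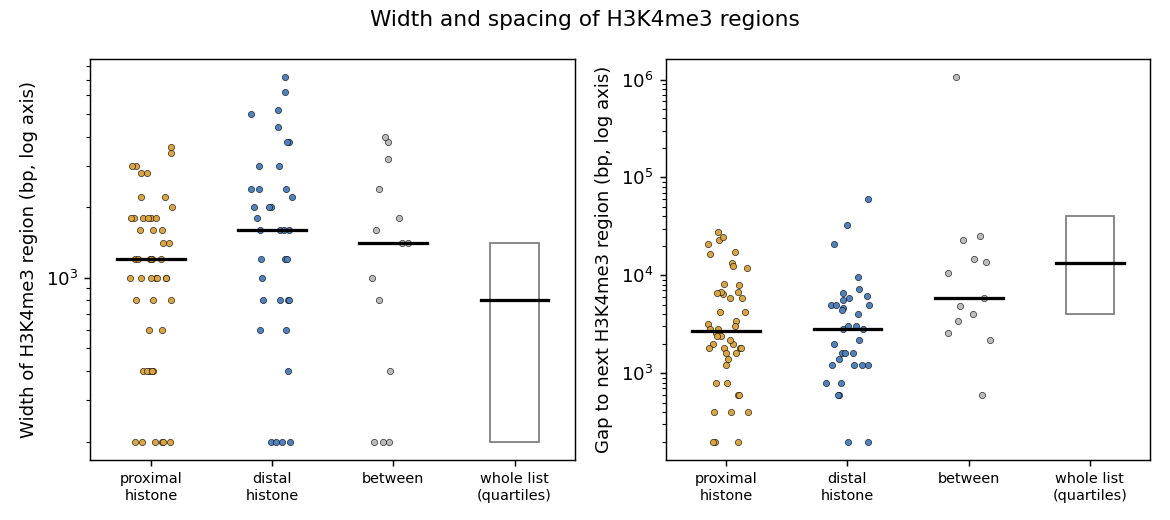
Width of each H3K4me3 region (left) and gap to the next region in the same stretch (right), both on log axes in bp. Points are regions, black bars medians, and the boxes the quartiles of the whole list. Median gaps of 2700 and 2800 bp in the histone stretches lie below the box of the list (4000 to 40200 bp), and the point near the top at right is the bare 1068.2 kb.

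Few H3K4me3 regions of the histone stretches met H3K27me3, although H3K27me3 covered more of the proximal stretch than of the genome. It touched 7 of the 85 H3K4me3 members (8.24%, 95% Wilson interval 4.05 to 16.04%), against 18.8% of the whole list. The share was 6 of 49 in the proximal stretch (12.2%, 5.74 to 24.2%) and 1 of 36 in the distal stretch (2.78%, 0.492 to 14.2%). Of the 7, 5 belonged to 1 H3K27me3 region, so they are not separate events. The other 78 members carried H3K4me3 without called H3K27me3, and 72 of the 85 (84.7%) lay more than 10 kb from any, as did 70.9% of the list. The median distance to the nearest H3K27me3 was 53800 bp for proximal and 88100 bp for distal members, and 46600 bp for the list.

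The proximal stretch carried 2 H3K27me3 regions, both close to its far end. One of 20.8 kb (22086401 to 22107200) met 5 H3K4me3 regions, which filled 26.0% of it. One of 4.6 kb (22072801 to 22077400) met 1, which filled 30.4%. Before 22072801 the stretch had 33 H3K4me3 regions from its start without any H3K27me3 among them. H3K4me3 continued after the larger region as well, starting with the 3.0 kb region at 22111801.

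Within the given limits, H3K27me3 lay only at the edges of the distal stretch. The run of 59 H3K4me3 regions that reaches past those limits held 9 H3K27me3 regions, which met 6 of the 59 (10.2%, 95% Wilson interval 4.75 to 20.5%). With both runs in place of the stretches, H3K27me3 regions numbered 11 in place of 4. One region of 3.2 kb (23501201 to 23504400) lay at its start and met 1 H3K4me3 region. One of 6.4 kb (23797601 to 23804000) crossed its end, and the H3K4me3 region it met, 600 bp wide from 23802001, lay outside the stretch. Between them, 293.2 kb of the distal stretch held no called H3K27me3, and these included all 5 of its widest H3K4me3 regions. By length, H3K27me3 covered 6.86% of the proximal and 1.87% of the distal stretch, against 2.39% of the assayed genome. Its coverage of both together, 4.63%, was 1.93 times the genome's, and 20.8 kb of the 31 kb came from 1 region.

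The stretch between was bare of both marks over most of its length. H3K27me3 was missing from 22107201 to 23377800, a length of 1270.6 kb, which 2.26% of the 18710 gaps in that list matched or exceeded. The stretch between had 3 H3K27me3 regions, of 2.2 kb (23377801 to 23380000), 5.0 kb (23401401 to 23406400) and 2.6 kb (23486201 to 23488800). All 3 lay in its last 138.4 kb, and together they met 4 of the 13 H3K4me3 regions there (30.8%, 95% Wilson interval 12.7 to 57.6%). H3K4me3 filled 63.6%, 48% and 61.5% of them. The 5 widest H3K4me3 regions of the stretch between, also all in that last part, measured 4.0 kb (23398401 to 23402400), 3.8 kb (23389801 to 23393600), 3.2 kb (23491601 to 23494800), 2.4 kb (23376801 to 23379200) and 1.8 kb (23487201 to 23489000). The first, the fourth and the fifth of these shared 1000, 1400 and 1600 bp with H3K27me3. How reads that match several places were treated was not given in the sources used here. Of the 33 receptor promoters, 17 had under 1% of their 36-base words in another gene's promoter and 0 had 90% or more. Among 52 histone promoters these were 42 and 4. Only promoter entries were searched, so copies in the rest of the bare block could not be found. The part of repeated sequence in the bare block was not tested.

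Windows as dense in H3K4me3 as the proximal stretch had more H3K27me3 regions, but not regularly more of their length under the mark. The 13 such windows of 370 kb had a median of 9 H3K27me3 regions, and 0 of the 13 had as few as the 2 of the proximal stretch. Their H3K27me3 coverage had a median of 5.62% (0.703 to 28.5%), and 7 of the 13 were at or below the 6.86% of the proximal stretch. The 50 windows of 300 kb with at least 36 H3K4me3 regions had a median of 8 H3K27me3 regions, and 8 of them had no more than the 2 of the distal stretch. Their coverage had a median of 7.30% (0 to 44.3%), and 6 of the 50 were at or below the 1.87% of the distal stretch.

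Wide H3K27me3 domains that also held many H3K4me3 regions had narrower ones by median than the histone stretches, though not than the whole list. Of 7 H3K27me3 regions of at least 100 kb, the 5 with 10 or more H3K4me3 regions were chosen (on chromosomes 2, 4, 6, 11 and 15; 95 regions in 605.4 kb). Their overlap of both marks and their H3K4me3 density are set by that choice and are not results. A choice by number of regions can also favour narrow, split calls, which was not tested. H3K4me3 regions in them had a median width of 800 bp, as in the whole list, against 1200 bp in the histone stretches. By domain the median ran from 600 bp (chromosome 15) to 1000 bp (chromosome 6). In them 11 of 95 (11.6%, 95% Wilson interval 6.59 to 19.6%) reached 2 kb. In the histone stretches 25 of 85 did (29.4%, 20.8 to 39.8%), and in the whole list 16.6%. That share was uneven among the domains and between the histone stretches. The chromosome 6 domain held 7 of the 11, which were 29.2% of its 24 regions. The proximal stretch had 18.4% (9.98 to 31.4%) and the distal stretch 44.4% (29.5 to 60.4%). The difference in width was not tested.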

How the data were processed

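ChIP-seq for H3K4me3 and for H3K27me3 gave 1 sample each. The aligner Bowtie (0.12.7) and build mm9 stand in the submitters' processing notes. For each mark the authors deposited 1 list of contiguous ChromHMM regions, with positions in bp on a 200-bp grid and no count or score. ChromHMM settings, the use of the input and the merging of replicates were not given in the sources used here. Libraries had 20 amplification cycles after precipitation.

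Coordinates are printed counting from 1. Coverage clips regions at the limits of a stretch, and the assayed genome runs to the last region of each chromosome. Regions named were the 5 widest H3K4me3 regions of each stretch, all H3K27me3 regions and the longest gaps. Nothing was tested, since each mark has 1 list. Gene names, order and promoters came from RefSeq tables of GRCm38.p6, none of whose coordinates were used. The members and lists were chosen with earlier results of these data known. Alternatives are given in the closing section. The interval functions were tested on simulated data. Python 3.11.15, pandas 2.3.3, scipy 1.17.1 and matplotlib 3.10.9 were used.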

Additional observations from a re-analysis of the deposited data

How the results depend on the processing

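For 8 results, 42 values were computed under alternatives. Counts, coverage and medians were called alike within 1.5 times the reported value, and the share with H3K27me3 inside its Wilson interval: 36 stayed alike and 6 moved. All 6 came from the limits of the stretches. Widened by 100 kb, the distal stretch held 56 H3K4me3 regions, the shortened stretch between 5, and both histone stretches 11 H3K27me3 regions. With limits set by runs of regions less than 100 kb apart, which were chosen after seeing the data, these were 59, 1 and 11. By construction such limits take in the regions beside the distal stretch. The proximal count stayed at 49 under both. Some values called alike could not move. No H3K4me3 member crossed a limit, so counting only regions wholly inside a stretch left the H3K4me3 values unchanged. No H3K27me3 member was as narrow as 400 bp. The Wilson interval treats regions as separate, although 5 of the 7 overlaps belong to 1 H3K27me3 region. Other values called alike shifted. With only regions wider than 400 bp, the median width in both histone stretches rose from 1200 to 1600 bp. With regions less than 1 kb apart joined, it was 1800 bp, at the edge of the 1.5-fold limit. The median gap then rose from 2800 to 4000 bp. Widths and gaps thus depend on how calls are split, and values of the whole list under these settings are not given. Over all alternatives, the share with H3K27me3 ran from 7.06% (overlap of at least 400 bp) to 11.1% (limits set by runs). No replicate could be left out, and no paired analysis was possible because each mark has 1 list. Depth limits which regions were called by an unknown amount.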

Other observations

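A stretch of very narrow H3K4me3 regions lay within the proximal histone stretch. From 21879401 to 21940400, 8 neighbouring regions in a row measured 200 or 400 bp and together covered 2400 bp of 61 kb. They were 8 of the 11 regions of 400 bp or less in the proximal stretch. In the distal stretch, the longest row of such regions was 1. This row was noticed after the values were seen.

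Copied promoter sequence was concentrated in 6 histone genes that follow each other in the gene order. Words of 36 bases in the 300-base promoter entries were looked up in the entries of all other genes whose entries do not overlap. In 42 of 52 histone promoters under 1% of the words occurred elsewhere. The share was 100% for Hist1h2bq and Hist1h2br, which encode H2B, 94.3% for Hist1h4m and Hist1h4n, which encode H4, and 89.4% and 74.7% for Hist1h2ao and Hist1h2ap, which encode H2A. The next highest were Hist1h4j and Hist1h4k, at 21.9% each. Among 33 receptor promoters, 17 were under 1%, and the highest were Vmn1r189 and Vmn1r221 at 54.7% each. The 6 genes are the last of the first histone group in the table. Whether they lie in the row of narrow regions was not examined, since the builds differ, and the effect of copied sequence on the calls was not tested.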
